A study of Oryctolagus cuniculus with 6 samples.

Results

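B and plasma cell genes were examined in rabbit facial nerve after facial nerve injury (FNI), with and without a radioactive I-125 seed. The 9 genes were chosen by symbol for their known cell type, though with earlier results of these data known. Of them, 8 are among the 17396 genes of the files. CD79B, MS4A1 and PAX5 form the B cell receptor and identity set. POU2AF1, MZB1, JCHAIN, TNFRSF17 and XBP1 form the plasma cell and secretory set. CD79A, the partner of CD79B, was listed under neither its symbol nor its RefSeq gene number and was not analysed here.

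All libraries came from wild type male Japanese white rabbits of 3 to 4 months whose left facial nerve trunk had been cut. The FNI group had the cut alone, and the FNI+I-125 group also received a seed of 0.8 mCi beside the nerve when the skin was closed. Nerves were collected on day 14, and each group had 3 libraries of oligo dT selected mRNA. The study's methods give 3 animals per group, while the labels do not tie a library to an animal, so p-values measure the spread between these libraries. A seed without radioactivity was not analysed here, so seed placement and radiation cannot be told apart.

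B cells recognise antigen through a surface immunoglobulin held by the CD79A and CD79B chains, whose tails carry the signal into the cell. After activation, some B cells become plasma cells, which shut down the B cell programme, enlarge the endoplasmic reticulum and secrete antibody. A healthy peripheral nerve holds few lymphocytes, and a cut nerve is entered by leukocytes during degeneration. The samples are whole tissue, so more cells of a type and more RNA per cell cannot be told apart.

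Total counts ran from 16031151 to 16798012 per library. The 12 Schwann cell markers, PMP22 among them, were all present, with a summed level of 4503 to 38866 CPM (counts scaled to the same library size after TMM normalization) in the FNI group and 872 to 4145 CPM in the FNI+I-125 group. FNI replicate 3 had the highest sum. Libraries also differed in tissue next to the nerve. The 18 salivary gland markers, DNASE1 and PIP highest, summed to 50481 CPM in FNI replicate 2 and to at most 3916 CPM elsewhere. The 10 skeletal muscle markers, ACTA1 and TTN highest, summed to 4989 and 4458 CPM in FNI+I-125 replicates 1 and 2 and to at most 167 CPM elsewhere. The part of these tissues in the results below was not tested.

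All 8 genes had a higher fitted level in the FNI+I-125 group, by 0.40 to 2.61 on the log2 scale, and none passed the test. The median log2 fold change was 0.93 for the 3 B cell genes and 1.30 for the 5 plasma cell genes, against 0.01 for all 14003 genes tested, of which 51.1% were positive. At an adjusted p under 0.05 and a log2 fold change of 1.5 or more, edgeR (quasi-likelihood test, adjusted by Benjamini-Hochberg) called 0 of the 8 members higher, where it called 0% of all genes. At an unadjusted p under 0.05 it gave 0 of the 8, against 9.23% of all genes higher at that p. DESeq2 gave an adjusted p for 6 of the 8 and called 0, against 1.75% of all genes, and DESeq2 and limma-voom each had 1 member, MZB1, at an unadjusted p under 0.05. All 8 passed the filter on low counts.

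**Figure D1:**
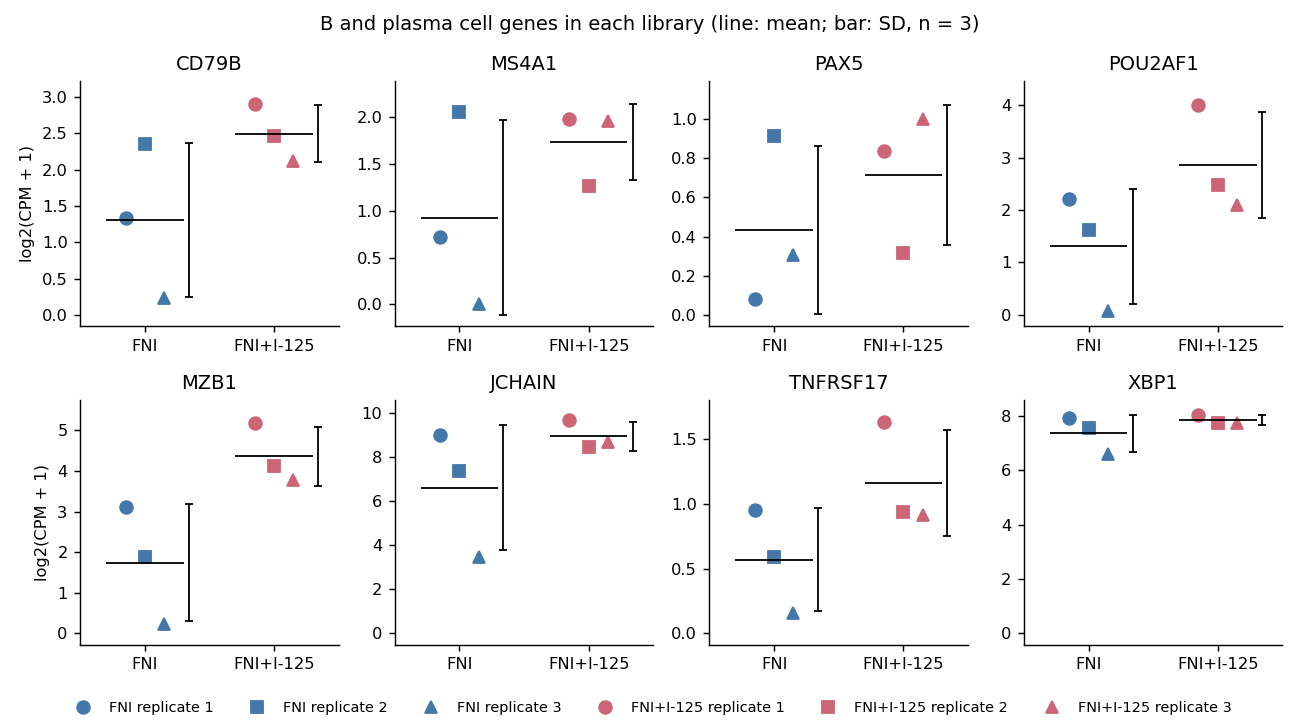
log2(CPM + 1) of the 8 genes in each library, with FNI in blue and FNI+I-125 in red, 1 marker shape per replicate number, a line for the mean and a bar for the SD (n = 3). MZB1 is the gene whose groups do not overlap, at 0.24 to 3.11 in the FNI group and 3.77 to 5.18 in the FNI+I-125 group.

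CD79B is the signalling chain of the B cell receptor. Counts are given in the order of replicates 1, 2 and 3, and were 26, 65 and 3 after the cut alone (FNI) and 99, 74 and 57 with the seed (FNI+I-125). As levels, these were 1.52, 4.09 and 0.177 CPM against 6.47, 4.50 and 3.35 CPM. FNI replicate 2 thus lay within the FNI+I-125 range and FNI replicates 1 and 3 below it. The means were 1.93 ± 1.99 CPM and 4.77 ± 1.58 CPM (SD, n = 3 each), with a log2 fold change of 1.30 (standard error 0.94, edgeR adjusted p = 0.469; exact permutation test, two-sided, p = 0.2). With 3 against 3 libraries that permutation test cannot go below 0.1.

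MS4A1 encodes CD20, a surface protein of B cells that is lost on plasma cells. Its counts were 11, 50 and 0 after the cut alone and 45, 23 and 49 with the seed, or 0.644, 3.15 and 0 CPM against 2.94, 1.40 and 2.88 CPM. The highest level of all was that of FNI replicate 2, and the 0 of FNI replicate 3 allows up to 0.177 CPM, for counting error only. It was fitted as a log2 fold change of 0.93 (standard error 1.28, edgeR adjusted p = 0.707), and the groups overlapped (exact permutation test, p = 0.4).

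PAX5 is the transcription factor that holds B cell identity and is switched off in plasma cells. It was the lowest in counts, with 1, 14 and 4 after the cut alone and 12, 4 and 17 with the seed, or 0.0586, 0.882 and 0.236 CPM against 0.784, 0.243 and 0.998 CPM. FNI replicate 2 was again within the FNI+I-125 range. The log2 fold change was 0.78 (standard error 0.99, edgeR adjusted p = 0.680; exact permutation test, p = 0.4), and counts of this size set wide limits on it.

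The plasma cell genes had a different order within the FNI group. POU2AF1 encodes a B cell coactivator of octamer-binding factors that is needed for germinal centres and stays on in plasma cells. Its counts were 62, 33 and 1 against 231, 75 and 56, or 3.63, 2.08 and 0.0591 CPM against 15.1, 4.56 and 3.29 CPM. FNI replicate 1 lay above FNI+I-125 replicate 3, so the groups overlapped by this pair. The log2 fold change was 1.99 (standard error 1.18, edgeR adjusted p = 0.392; exact permutation test, p = 0.2), and 1.03 without FNI+I-125 replicate 1.

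MZB1, an endoplasmic reticulum protein that helps to assemble and secrete immunoglobulin, had the largest difference of the 8. Its counts were 130, 43 and 3 after the cut alone and 541, 268 and 216 with the seed. The levels were 7.61, 2.71 and 0.177 CPM against 35.4, 16.3 and 12.7 CPM, and every FNI+I-125 library lay above every FNI library. The means were 3.50 ± 3.78 CPM and 21.5 ± 12.2 CPM (SD, n = 3 each). The log2 fold change was 2.61 (standard error 1.10, edgeR p = 0.0558, adjusted p = 0.301; exact permutation test, p = 0.1, the smallest possible). Of all genes tested, 14.8% had every seed library above every FNI library, against 1 of the 8 members. The adjusted p of MZB1 was 0.0988 in DESeq2 and 0.304 in limma-voom. The log2 fold change was 3.89 without FNI replicate 1 and stayed at 2.03 or more with any 1 library left out.

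JCHAIN encodes the joining chain of polymeric IgM and IgA and was the member with the most counts. Its counts were 8608, 2631 and 170 after the cut alone and 12659, 5749 and 6895 with the seed. As levels these were 504, 166 and 10.05 CPM against 827, 350 and 405 CPM. FNI replicate 1 was above FNI+I-125 replicates 2 and 3. The log2 fold change was 1.22 (standard error 1.17, edgeR adjusted p = 0.581; exact permutation test, p = 0.3), with 2.58 without FNI replicate 1 and 0.63 without FNI replicate 3.

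TNFRSF17 encodes BCMA, the plasma cell receptor for the survival ligands APRIL and BAFF. Its counts were 16, 8 and 2 against 32, 15 and 15, or 0.937, 0.504 and 0.118 CPM against 2.09, 0.913 and 0.881 CPM. FNI replicate 1 stood between FNI+I-125 replicates 1 and 2, so the overlap was narrow. Its log2 fold change was 1.30 (standard error 0.79, edgeR adjusted p = 0.398; exact permutation test, p = 0.3), or 0.78 without FNI+I-125 replicate 1.

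XBP1 encodes the transcription factor of the unfolded protein response that expands the secretory apparatus of plasma cells and of many other secretory cells. Its counts were 4105, 2973 and 1613 after the cut alone and 4010, 3508 and 3635 with the seed, or 240, 187 and 95.3 CPM against 262, 214 and 213 CPM. FNI replicate 1 lay above FNI+I-125 replicates 2 and 3. The difference was the smallest of the 8, with a log2 fold change of 0.40 (standard error 0.34, edgeR adjusted p = 0.533; exact permutation test, p = 0.3). Without FNI replicate 3 the value was 0.08. As a ratio of the highest to the lowest CPM, XBP1 varied least of the 8 between libraries, while JCHAIN, of the same set, was lowest by far in FNI replicate 3.

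**Figure D2:**
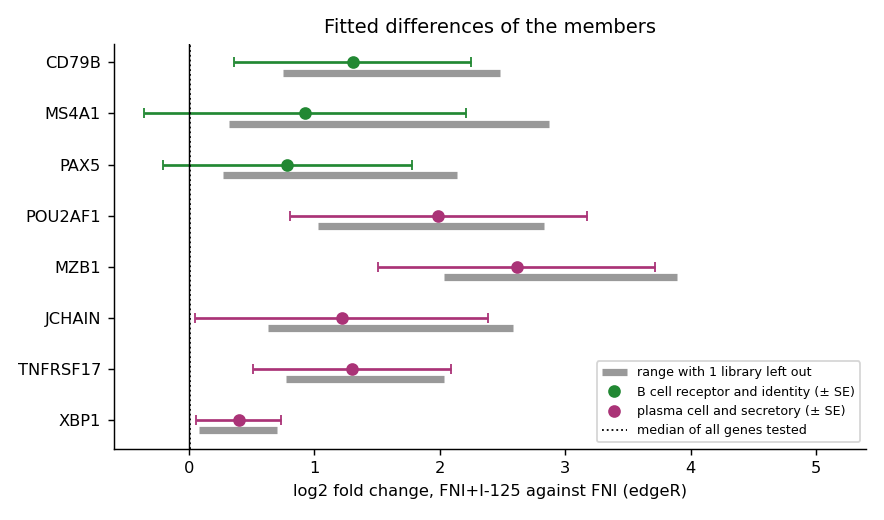
Fitted log2 fold change of each member, FNI+I-125 against FNI, as a point with its standard error (green, B cell receptor and identity; purple, plasma cell and secretory), and in grey the range with 1 library left out in turn. All points lie above 0, and the widest range is that of MS4A1, from 0.32 to 2.87.

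The B cell set and the plasma cell set were then compared. Their fitted differences overlapped, at 0.78 to 1.30 for the B cell genes and 0.40 to 2.61 for the plasma cell genes on the log2 scale. Which genes overlapped between the groups depended on single libraries. Without FNI replicate 1, all 5 plasma cell genes and 0 of the 3 B cell genes lay higher with the seed without overlap, against 19.6% of all genes in that direction. Without FNI replicate 2, all 3 B cell genes and 1 of the 5 plasma cell genes, MZB1, were, against 20.9% of all genes. Without FNI replicate 3, MZB1 was the 1 such gene of the 8, against 18.2% of all genes. Leaving out a seed library also mattered. Without FNI+I-125 replicate 3 there were 3 members from both sets, CD79B, POU2AF1 and MZB1, against 21% of all genes. MZB1 was again the 1 such gene without FNI+I-125 replicate 1, against 19% of all genes, and without FNI+I-125 replicate 2, against 21%. Leaving out libraries for this count was chosen after the values had been seen, and with 3 libraries per group the difference between the sets was not tested.

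The balance of the sets within a library was expressed as the share of POU2AF1, MZB1 and TNFRSF17 counts among these and the CD79B, MS4A1 and PAX5 counts. JCHAIN and XBP1 were left out of this sum, since their counts outweigh the others. MZB1, the member without overlap, gave the largest part of the plasma cell counts that were left. In the FNI+I-125 libraries it gave 541 of 804, 268 of 358 and 216 of 287. In the FNI libraries it gave 130 of 208, 43 of 84 and 3 of 6. The share thus followed MZB1 to a large part, and it was formed after the values had been seen. The share was 84.6% (208 of 246 counts, 95% exact binomial interval 79.4% to 88.8%) in FNI replicate 1, 39.4% (84 of 213, 32.8% to 46.3%) in FNI replicate 2 and 46.2% (6 of 13, 19.2% to 74.9%) in FNI replicate 3. In FNI+I-125 replicates 1, 2 and 3 it was 83.8% (804 of 960, 81.3% to 86.0%), 78.0% (358 of 459, 73.9% to 81.7%) and 70.0% (287 of 410, 65.3% to 74.4%). All FNI+I-125 libraries were thus above 65.3% at their lower limits, and the FNI libraries spread to both sides of them. FNI replicate 2 had fewer plasma cell counts than B cell counts by its interval. The intervals cover counting error only.

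**Figure D3:**
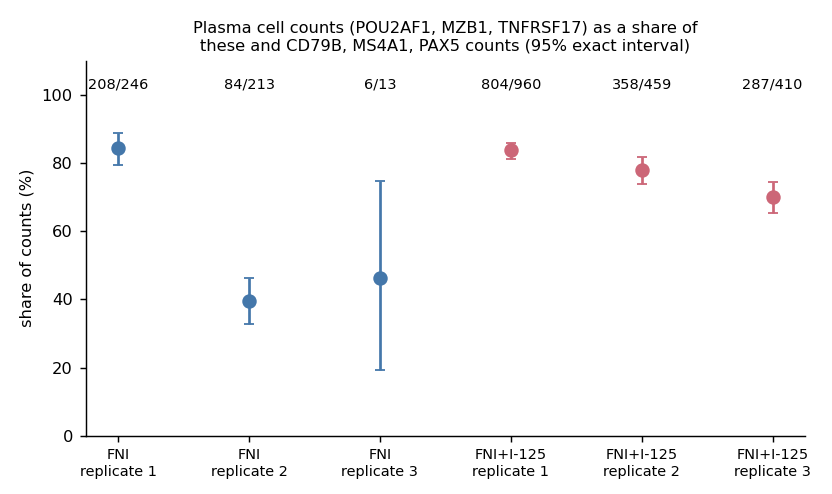
Share of plasma cell counts (POU2AF1, MZB1 and TNFRSF17) among these and the B cell counts (CD79B, MS4A1 and PAX5) in each library, in percent with the 95% exact binomial interval and the counts above. FNI replicate 1, at 84.6%, stands with the FNI+I-125 libraries, at 70.0% to 83.8%, and FNI replicate 2 stands at 39.4%.

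Leukocyte genes differed in the same direction as both sets. The 6 markers shared by leukocytes (PTPRC, CD53, CD48, CORO1A, LCP1 and LAPTM5, the last 2 with the highest levels) were all higher in the FNI+I-125 group without overlap, with a median log2 fold change of 1.78. Of all genes tested, 14.8% were higher without overlap. PTPRC, the CD45 antigen of all leukocytes, stood at 41.5, 66.4 and 10.8 CPM against 143, 162 and 98.7 CPM (log2 fold change 1.77, standard error 0.63, edgeR adjusted p = 0.280). The summed level of the 6 markers was 101 to 675 CPM in the FNI group and 1123 to 1742 CPM in the FNI+I-125 group, with FNI replicate 3 the lowest library, as for 7 of the 8 members.

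Set against this sum, the B cell genes had the higher mean in the FNI group, within its spread. Their summed level per 1000 CPM of the leukocyte markers was 4.66, 12.0 and 4.10 after the cut alone and 7.28, 3.53 and 6.43 with the seed, with means of 6.93 ± 4.43 and 5.75 ± 1.97 (SD, n = 3 each). That of POU2AF1, MZB1 and TNFRSF17 was 25.5, 7.83 and 3.51 against 37.5, 12.5 and 14.996, with means of 12.3 ± 11.7 and 21.7 ± 13.8 (SD, n = 3 each). Against the T cell markers described below, the B cell genes had the lower mean in the FNI group. Per 100 CPM of those markers, the means were 11.7 ± 7.43 after the cut alone and 16.2 ± 9.16 with the seed (SD, n = 3 each). Those of POU2AF1, MZB1 and TNFRSF17 were 26.5 ± 32.1 and 60.8 ± 47.8 (SD, n = 3 each). All of these ratios overlapped between the groups. They were formed after the values had been seen, and the part of the leukocyte sum in the members' differences was not tested.

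Markers of single leukocyte types gave the same picture of FNI replicate 3 as the lowest library. The 12 T cell markers summed to 9.40 to 42.2 CPM in the FNI group and 34.5 to 109 CPM in the FNI+I-125 group, and FNI+I-125 replicate 2 was the highest, unlike for the members. Of the 11 tested, all had a positive log2 fold change, with LCK (1.59, edgeR adjusted p = 0.310) and CD5 (1.89, edgeR adjusted p = 0.294) at the highest levels. The 10 macrophage markers, with CSF1R and CD68 highest, summed to 259 to 971 CPM against 1185 to 1836 CPM without overlap. The 6 markers of plasmacytoid dendritic cells, which also use MZB1, gave 202 to 282 CPM against 279 to 350 CPM. TCF4 and RUNX2 made up much of that sum and are not restricted to those cells.

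**Figure D4:**
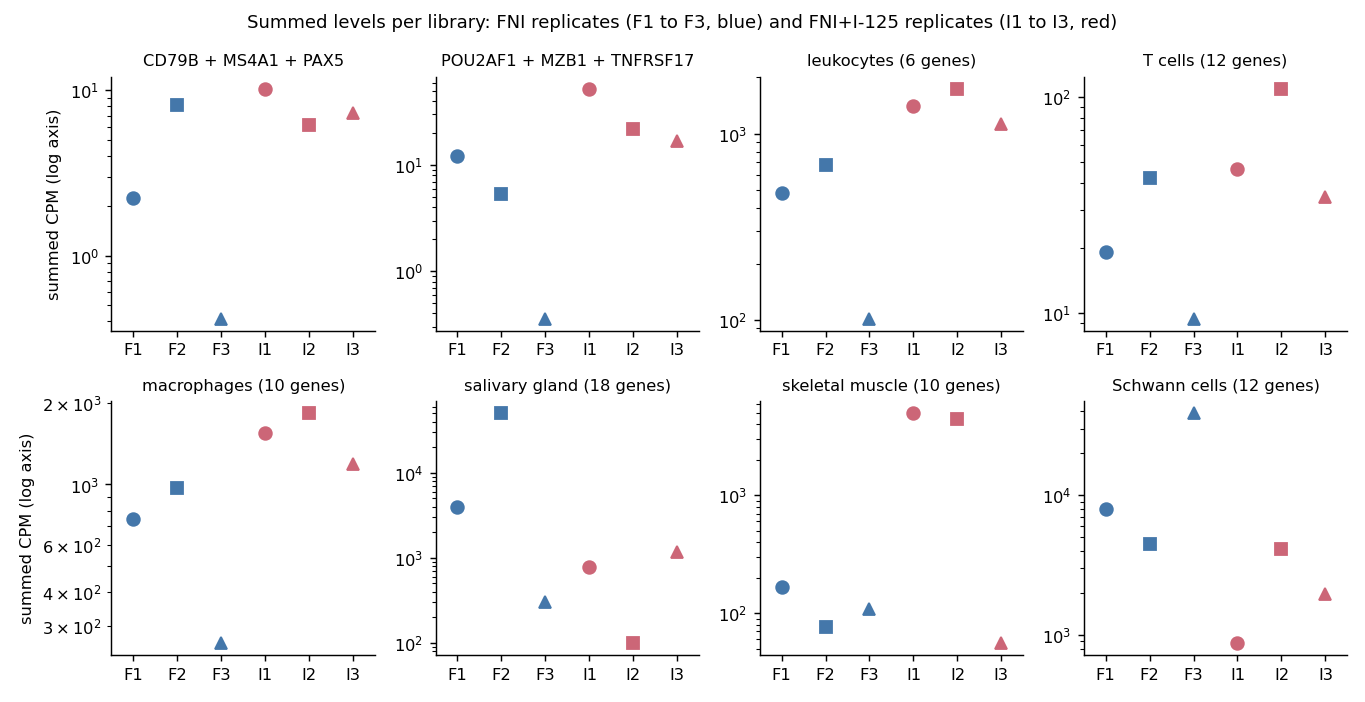
Summed CPM per library on log axes for the B cell genes, 3 plasma cell genes and 6 marker lists, with FNI replicates as F1 to F3 in blue and FNI+I-125 replicates as I1 to I3 in red. Leukocyte markers lie at 101 to 675 CPM in the FNI group and 1123 to 1742 CPM in the FNI+I-125 group, and the salivary gland sum peaks in F2 at 50481 CPM.

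Other genes of the same pathways were counted by lists. In the list of B cell receptor signalling and B cell surface genes, 28 of 31 were tested and 26 had a positive log2 fold change, with a median of 1.28. At an unadjusted p under 0.05, 11 were higher and 1 was lower, where 9.23% of all genes were higher. In edgeR 0 passed the adjusted p. CD40, the receptor for T cell help that macrophages also carry, stood at 8.02, 9.89 and 6.97 CPM against 19.3, 17.5 and 13.4 CPM (log2 fold change 1.01, standard error 0.23, edgeR adjusted p = 0.280). PLCG2, the phospholipase below the receptor, had a log2 fold change of 0.74 (standard error 0.17) with the same adjusted p. SYK, LYN and BTK, kinases of the receptor's signal, had log2 fold changes of 1.74, 1.30 and 1.45. Like PLCG2, these kinases are also used by macrophages, whose markers had a median log2 fold change of 1.60. The part of macrophages in these values was not tested. CD72, a B cell surface receptor, had the highest of the list, at 2.74 (standard error 0.91, edgeR adjusted p = 0.280). FCRLA, BLK, FCER2 and BANK1, also used by B cells, had log2 fold changes of 0.21, 0.15, 0.14 and 0.47. CD22, an inhibitory receptor of B cells, stood at 6.97, 11.7 and 1.36 CPM against 24.9, 18.3 and 14.9 CPM, with no overlap (log2 fold change 1.54, standard error 0.71, edgeR adjusted p = 0.317).

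In the list of B cell transcription factors and germinal centre genes, 15 of 20 were tested and 11 had a positive log2 fold change, with a median of 0.94. SPI1 (2.05, standard error 0.56) and IKZF3 (1.83, standard error 0.66) were higher at an unadjusted p under 0.05, and FOXO1 (-0.74, standard error 0.23) and EBF1 (-0.58, standard error 0.19) were lower. The adjusted p was 0.280 in edgeR for each. SPI1 also drives macrophage fate, IKZF3 also acts in T cells, and FOXO1 and EBF1 are also used outside the B lineage. FDCSP, a secreted protein of follicular dendritic cells, was at 0 counts in the FNI group and at 52, 12 and 19 counts in the FNI+I-125 group. The mean of the FNI+I-125 group, 1.75 CPM, was 9.68 times a floor of 3 counts per FNI library. That floor covers counting error only, and the FNI+I-125 libraries spread from 0.730 to 3.40 CPM. CXCL13, the chemokine that draws B cells, was counted 2, 39 and 2 times against 19, 26 and 46 times (p = 0.3 by the exact permutation test). In its FNI libraries the high one was replicate 2, as for CD79B, MS4A1 and PAX5. CR2, a further follicular dendritic cell marker that B cells also carry, stood at 3.22, 2.02 and 8.51 CPM against 5.49, 1.22 and 3.99 CPM. Its log2 fold change was -0.36 (standard error 0.74, edgeR adjusted p = 0.806). Of 9 follicular dendritic cell and lymphoid stroma markers tested, 6 had a positive log2 fold change, with a median of 0.27. CLU and CCL21, the highest of these markers in level, had log2 fold changes of -0.54 and 0.31.

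Of 20 plasma cell identity genes, 18 were tested and 15 had a positive log2 fold change, with a median of 1.21. At an unadjusted p under 0.05, 3 were higher, against 9.23% of all genes. PRDM1, which encodes BLIMP1, the repressor that starts the plasma cell programme and also acts in T cells and macrophages, stood at 7.79, 10.6 and 1.65 CPM after the cut alone and 69.4, 20.3 and 29.2 CPM with the seed. The fitted difference was 2.56 on the log2 scale (standard error 0.78, edgeR adjusted p = 0.280), or 1.89 without FNI+I-125 replicate 1. CD38, an ectoenzyme high on plasma cells and on activated leukocytes, stood at 4.57, 5.92 and 2.30 CPM against 18.9, 14.8 and 13.7 CPM (log2 fold change 1.89, standard error 0.38, edgeR adjusted p = 0.280). Neither gene overlapped between the groups. The plasma cell proteoglycan SDC1, which epithelium also makes, was highest in FNI+I-125 replicate 3 at 205 CPM, and IRF4 had a log2 fold change of 0.78 with overlap. DERL3 and FKBP11, of the secretory pathway, were highest in FNI replicate 2, at 18.8 and 146 CPM.

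Genes of the unfolded protein response and secretory machinery, which are not all targets of XBP1, had mostly small positive differences. Of 37 genes tested, 34 had a positive log2 fold change, with a median of 0.37, where XBP1 itself had 0.40. The part of XBP1 in these values was not tested. At an unadjusted p under 0.05, 6 were higher and 0 lower, where 9.23% of all genes were higher. MANF (log2 fold change 1.11, standard error 0.33) and DNAJB11 (0.65, standard error 0.20), both endoplasmic reticulum stress proteins, had the smallest p (edgeR adjusted p = 0.280 for each). The sum of the list was 4203 to 4925 CPM in the FNI group and 5131 to 8064 CPM with the seed, without overlap, the highest being FNI+I-125 replicate 1. Of the 37 genes, 10 were higher without overlap, against the 14.8% of all genes given above.

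Among survival and recruitment factors, 12 of 18 genes were tested and 8 had a positive log2 fold change. At an unadjusted p under 0.05, 4 were higher, against 9.23% of all genes. The ligands of TNFRSF17 differed from each other. TNFSF13B, which encodes BAFF, stood at 6.44, 9.07 and 3.43 CPM against 12.2, 13.6 and 11.2 CPM (log2 fold change 0.96, standard error 0.37, edgeR adjusted p = 0.286). TNFSF13, which encodes APRIL, stood at 13.5, 13.9 and 15.8 CPM against 6.01, 12.5 and 13.6 CPM (log2 fold change -0.43, standard error 0.33, edgeR adjusted p = 0.488). The BAFF receptor TNFRSF13C had a log2 fold change of 0.86 (edgeR adjusted p = 0.585). TNFRSF13B, which encodes TACI, had 7, 1 and 0 counts against 23, 5 and 10 and did not pass the filter. ICOS, a costimulator on the T cells that help B cells, had 4, 6 and 1 counts against 51, 54 and 22 (log2 fold change 3.52, standard error 0.74, edgeR adjusted p = 0.280). ICOS and FDCSP, both among those 4, had fewer than 10 counts in every FNI library. They passed the filter on low counts through the FNI+I-125 libraries, where they were high, so the count of 4 is shaped by the filter. IL6, a growth factor of plasma cells, reached 236 counts in 1 library, FNI+I-125 replicate 1, and at most 33 elsewhere.

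**Figure D5:**
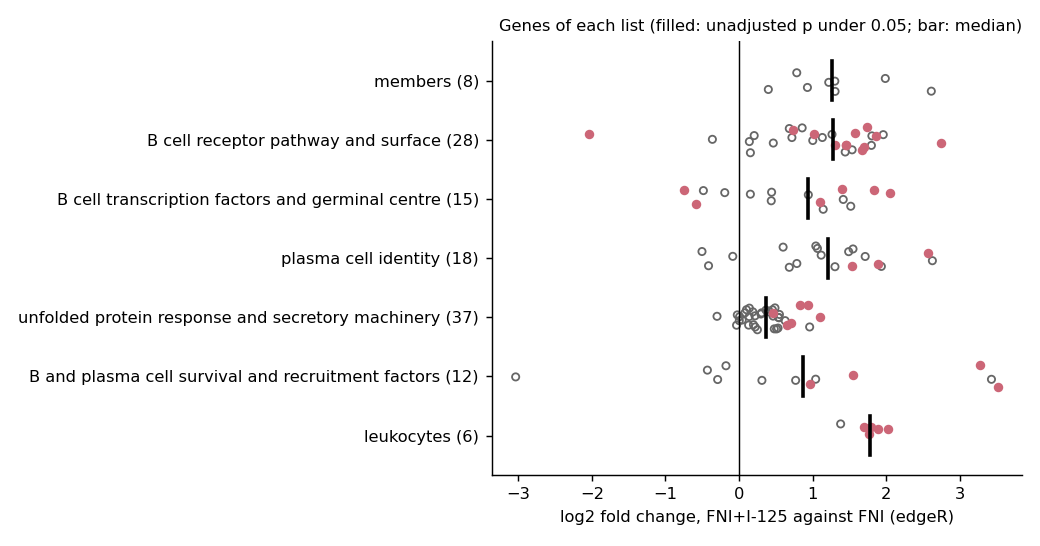
log2 fold change, FNI+I-125 against FNI, of each gene of the members and 6 related lists, with the number tested in brackets, filled points for an unadjusted p under 0.05 and a bar at the median. FDCSP is drawn at its lower bound of 3.27, which covers counting error only. The members' median of 1.26 lies below the 1.78 of the leukocyte markers.

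Immunoglobulin genes are listed in part. Of 14 immunoglobulin genes and receptors looked for by symbol, 5 were listed and 2 tested. FCGRT, the neonatal receptor that recycles IgG, was at 332 ± 14.6 CPM and 335 ± 54.6 CPM (SD, n = 3 each). PIGR, the epithelial receptor that carries JCHAIN-linked immunoglobulin into secretions, was at 368, 35.6 and 0.118 CPM against 24.3, 0.426 and 432 CPM. FNI replicate 1 and FNI+I-125 replicate 3 were high in PIGR, while FNI+I-125 replicate 1, the highest library for JCHAIN, was not.

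A gene without a name, LOC100009097, was found by its likeness to JCHAIN and is described after its values were seen. In the RefSeq table of rabbit assembly mOryCun1.1, 15 of its 20 nearest entries are immunoglobulin V segments or C regions. Its counts were 72594, 16354 and 1117 after the cut alone and 202492, 74115 and 50065 with the seed, up to 1.22% of a library. The order of the FNI libraries was that of JCHAIN and MZB1, and FNI replicate 1 lay within the FNI+I-125 range. Its log2 fold change was 1.95 (standard error 1.35, edgeR adjusted p = 0.452; exact permutation test, p = 0.2), or 3.65 without FNI replicate 1.

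The genes most like each set over the 6 libraries were found by Pearson's r of log2(CPM + 1) with the mean standardised level of the set, given as a description. For the B cell genes these were CCR4, a chemokine receptor of T cells (0.994), then OTULIN (0.992), TRIB3 (0.988), ERLEC1 (0.985) and an unnamed gene, and 32 genes exceeded 0.95. For the plasma cell genes they were INTS10 (0.997), LACTB (0.996), an unnamed gene, PES1 (0.994) and TXNDC5, a disulphide isomerase of the endoplasmic reticulum that plasma cells make in quantity (0.993), and 253 genes exceeded 0.95.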

How the data were processed

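For each library the authors deposited a table of unnormalized counts, whole numbers of reads for each gene. The submitters' processing notes name HISAT2 and OryCun2.0 without roles. The counting program and annotation are not given in the sources used here. Strand use in counting is likewise not given. The labels name a mirVana kit for RNA and the study's methods TRIzol.

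Of 2992 LOC identifiers, 542 were given a symbol from the RefSeq table of mOryCun1.1, used for names and neighbours alone. In 25 rows, with 0.188% of the counts, a date stands in place of a name. No sequences were at hand.

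The tools were edgeR 4.0.16, DESeq2 1.42.0 and limma 3.58.1, run under R 4.3.3. The main test was edgeR's glmQLFTest after TMM (factors 0.923 to 1.06) and filterByExpr with a minimum count of 10, two-sided, adjusted by Benjamini-Hochberg across the 14003 genes that passed. Standard errors are the log2 fold change divided by the root of F. The exact permutation test used log2(CPM + 1) over the 10 splits of 6 libraries. Libraries hold 0.175 to 0.196 CPM at 3 counts. The scripts were tested on simulated data.

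Members and lists were chosen with earlier results of these data known. By rule, all members were named, and of each list the 2 genes per direction with the smallest p under 0.05, or the 2 with the highest mean CPM for marker lists and where none passed, and the 5 genes most like each set. Other genes were named after their values were seen. Some genes that the rule selects are not reported here. Alternatives were DESeq2, limma-voom, the other legacy setting of glmQLFit, RLE, library size only, the gland and muscle genes left out, no filter, 10 counts in every library, an unadjusted p, a replicate block and each library left out.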

Additional observations from a re-analysis of the deposited data

How the results depend on the processing

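Under 15 alternatives, DESeq2 and limma-voom among them, 0 members were called in either direction. The 114 refitted log2 fold changes of single members were all positive, and none had an adjusted p under 0.05. DESeq2 gave no adjusted p for PAX5 and TNFRSF17. All were refits of the same libraries. Another 6 refits could not be had, since the genes concerned did not have 10 counts in every library, and that filter left no B cell gene. Over all genes, DESeq2 called 234 higher and 163 lower against 0 and 0, an unadjusted p under 0.05 gave 1293 and 1082, and leaving out 1 library gave 0 to 38 and 0 to 2, with 38 and 2 without FNI+I-125 replicate 3. The median log2 fold change was 0.93 for the B cell genes, 2.09 with limma-voom, 1.97 with a replicate block, and 0.50 (without FNI replicate 3) to 2.48 (without FNI replicate 2) with 1 library left out. For the plasma cell genes it was 1.30, 2.38 with limma-voom, 2.12 with a replicate block, and 0.78 (without FNI+I-125 replicate 1) to 2.58 (without FNI replicate 1). The cause was not tested. With FNI replicate 3 and FNI+I-125 replicate 1 both left out, chosen after seeing the data, XBP1 turned from 0.40 to -0.019 and MZB1 stood at 1.47. With 1 library left out, XBP1 ran from 0.08 to 0.70. The replicate numbers were not treated as pairs in the main test. Deviations of same-numbered libraries had correlations across genes of 0.05, -0.19 and -0.14, and the block called 0 genes and 0 members. So few libraries cannot show whether the numbers pair them. Counts of 0 to 99 for CD79B, MS4A1, PAX5 and TNFRSF17 limit what these libraries can show.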

Other observations

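FCRL3 and FCMR, Fc receptor and Fc receptor-like genes of lymphocytes that were in no list, were counted 22, 60 and 1 times and 7, 39 and 1 times after the cut alone, and 91, 65 and 72 times and 27, 26 and 31 times with the seed. Their order within the FNI group was that of CD79B and MS4A1. Both were picked after their values were seen.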
